A study of Mus musculus with 4 samples.

Results

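The genes described here are 10 members of the BCL2 family, the proteins that set whether a cell survives or starts mitochondrial apoptosis. They were taken by gene symbol from the 24411 genes listed for each library: the antiapoptotic Bcl2, Bcl2l1 (BCL-XL) and Mcl1, the effectors Bax and Bak1 (BAK), and the BH3-only genes Bcl2l11 (BIM), Bbc3 (PUMA), Pmaip1 (NOXA), Bmf and Bid. All 10 were listed, and all 10 passed the filter on low counts, with at least 20 reads in every library. RNA came from B220-positive cells sorted from mouse tibia and femur marrow, B220 being a surface marker of the B lineage. There were 2 libraries of wildtype mice and 2 of mice labelled Arid5b overexpression. The sources used here do not give the driver of the transgene, the strain, the age of the mice, or whether libraries came from separate mice, so p-values measure only the spread between these libraries. The libraries held 14196665 to 20356404 reads assigned to genes. The ribosomal RNA precursor Rn45s made up 25.69% to 30.52% of these reads, and library totals include it unless stated.

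BAX and BAK permeabilise the outer mitochondrial membrane, which releases cytochrome c and starts the caspases. BCL2, BCL-XL and MCL1 hold them in check, and BH3-only proteins, made in response to loss of growth factor, DNA damage or receptor signals, bind the antiapoptotic proteins and some of them activate BAX and BAK directly. In the B lineage MCL1 is needed from the progenitor stages on, BCL-XL is known for the survival of pre-B cells, BCL2 for that of mature B cells, and BIM for the death of self-reactive and growth factor-deprived B cells.

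The libraries within the overexpression-labelled group differed, and the header and title of overexpression-labelled library 1 disagree by 1 digit. Arid5b, the targeted gene, stood at 148.6 and 173.6 CPM (reads scaled to equal library totals) in wildtype libraries 1 and 2, at 3804 CPM in overexpression-labelled library 1 and at 136.1 CPM in overexpression-labelled library 2, so it goes against the label of library 2. Across genes, library 1 correlated with the other 3 libraries at a Pearson r of 0.786 to 0.792, and those 3 with each other at 0.964 to 0.982. The summed level of 5 pro-B and pre-B markers was 3657 CPM in library 1 and 1.474 to 7.594 CPM elsewhere, that of 5 later B cell markers was 185.9 CPM against 17790 to 19640 CPM, and that of 5 cycling markers 2312 CPM against 100 to 158.4 CPM. The 6 B lineage markers summed to 3079 CPM in library 1 and 4402 to 4887 CPM elsewhere, none of them was at 0, and 3 rose and 3 fell in library 1. Ptprc, the gene of the protein that carries B220, had 35704 and 27790 reads in wildtype, 5683 in library 1 and 38260 in library 2, while Pax5 had 2915, 2147, 4897 and 2934 reads in the same order. The 8 neutrophil markers summed to 1422 CPM in library 2, 127 CPM in library 1 and 6.204 and 98.83 CPM in wildtype, and all 7 that were tested rose in library 2. Of the pro-B and pre-B markers 4 were at 0 in wildtype library 2 and in library 2, and 0 were at 0 in library 1. The 8 T and NK cell markers summed to 1.701 CPM in library 1 and 27.12 to 56.14 CPM elsewhere, the 5 plasmacytoid dendritic cell markers to 1.178 CPM and 63.03 to 125.9 CPM, and the 5 monocyte markers to 202 CPM in library 2 and 26.26 to 38.6 CPM elsewhere. Of the monocyte markers 1 rose in library 2, Lyz2 (343 and 477 reads in wildtype, 380 in library 1 and 4045 in library 2), which neutrophils express too, while Ccr2 had 150 and 46 reads in wildtype and 38 in library 2. Erythroid markers summed to 3.921 to 5.497 CPM, with Hba-a1, Hbb-bs and Hbb-b1 at 0 in every library. Results are therefore given for each overexpression-labelled library as well as for both. In bulk RNA, fewer cells of a type and less RNA per cell cannot be told apart.

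The upstream sequences of 4 members are shown: those of Bcl2 and Bcl2l1 because these antiapoptotic genes moved in opposite directions in library 1, and those of Bcl2l11 and Bbc3 because these BH3-only genes fell there and their windows hold the same motif. Each is the 250 bases before a RefSeq transcript start (build GRCm38.p6), printed 5′ to 3′ on the gene's strand. The windows are chr1:106714291-106714540 on the minus strand for Bcl2, chr2:152831729-152831978 on the minus strand for Bcl2l1, chr2:128125788-128126037 on the plus strand for Bcl2l11 and chr7:16310011-16310260 on the plus strand for Bbc3. Capitals mark GTAAACA or its reverse complement, a core sequence bound by FOXO factors.
Bcl2: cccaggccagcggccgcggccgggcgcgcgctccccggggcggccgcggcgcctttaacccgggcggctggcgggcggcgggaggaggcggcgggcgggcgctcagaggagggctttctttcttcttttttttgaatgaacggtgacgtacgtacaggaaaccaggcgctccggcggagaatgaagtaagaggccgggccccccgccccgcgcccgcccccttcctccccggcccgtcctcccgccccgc
Bcl2l1: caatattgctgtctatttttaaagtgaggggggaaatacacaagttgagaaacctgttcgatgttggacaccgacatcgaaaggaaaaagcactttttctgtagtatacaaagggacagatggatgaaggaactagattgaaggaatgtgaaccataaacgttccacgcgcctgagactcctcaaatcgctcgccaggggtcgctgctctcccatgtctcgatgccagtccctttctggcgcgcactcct
Bcl2l11: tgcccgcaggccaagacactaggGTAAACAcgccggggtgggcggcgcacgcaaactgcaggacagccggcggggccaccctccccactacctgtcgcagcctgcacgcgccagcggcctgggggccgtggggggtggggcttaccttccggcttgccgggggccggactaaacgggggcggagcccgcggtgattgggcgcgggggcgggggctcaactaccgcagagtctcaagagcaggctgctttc
Bbc3: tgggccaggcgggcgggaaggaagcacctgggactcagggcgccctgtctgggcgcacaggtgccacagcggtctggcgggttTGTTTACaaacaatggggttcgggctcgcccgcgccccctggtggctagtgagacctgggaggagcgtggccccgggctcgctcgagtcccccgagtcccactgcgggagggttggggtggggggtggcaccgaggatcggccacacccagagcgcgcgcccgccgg

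RefSeq windows were searched for 9 of the members, 16 windows in all, of which some belong to the same gene and overlap. Pmaip1, a BH3-only gene that also fell in library 1, had no window. The FOXO letters GTAAACA occurred on either strand in 2 of the 16 windows, those of Bcl2l11 and Bbc3 shown above, and in 3.17% of all 32851 RefSeq windows. Other windows of Bcl2l11 and Bbc3 were searched too and held no match. The E-box CACGTG occurred in 2 windows, of Bax and of Bbc3 (6.02% of all windows), and the E2F letters TTTCGCGC in 1 window of Bcl2l1 that is not shown (0.256%). The GC box GGGCGG occurred in 9 of the 16 windows (32.7%) and is left in lower case above. Matches to the STAT letters TTCNNNGAA (7.02%), the ETS letters CCGGAAGT (2.88%), the cyclic AMP response element TGACGTCA (1.55%) and a 10-base NF-kB consensus (0.14%) were not found in these windows. GC content was 74.8% for Bcl2, 72% for Bcl2l11 and 72.4% for Bbc3, and 47.6% for Bcl2l1, with a median of 52.4% over all windows. A match of letters describes the sequence only.

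Levels of different members are compared per length, as reads per kilobase of exon at equal library totals (RPKM). In wildtype libraries 1 and 2 Mcl1 was the most abundant member, at 136 and 123 RPKM. Pmaip1 followed at 43.9 and 54.0 RPKM, and Bcl2l11 at 29.9 and 27.0 RPKM. Bak1 (11.7 and 9.36 RPKM) and Bax (10.4 and 8.98 RPKM) came next, with ranges that overlapped. Bcl2 (8.25 and 7.58 RPKM), Bmf (8.20 and 4.93 RPKM) and Bbc3 (7.76 and 6.43 RPKM) overlapped as well, and so did Bmf and Bid (5.90 and 5.48 RPKM). Bcl2l1 was the lowest member, at 0.271 and 0.307 RPKM. Library 2 had a similar order, with Mcl1 at 88.5 RPKM, Pmaip1 at 40.9, Bcl2l11 at 16.8 and Bcl2l1 lowest at 0.311. In library 1 the order changed: Mcl1 stood at 63.6 RPKM, Bak1 was second at 51.0, Pmaip1 next at 26.3, Bcl2l1 was at 5.45, and Bcl2 and Bbc3 were lowest at 2.57 and 2.5.

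**Figure D1:**
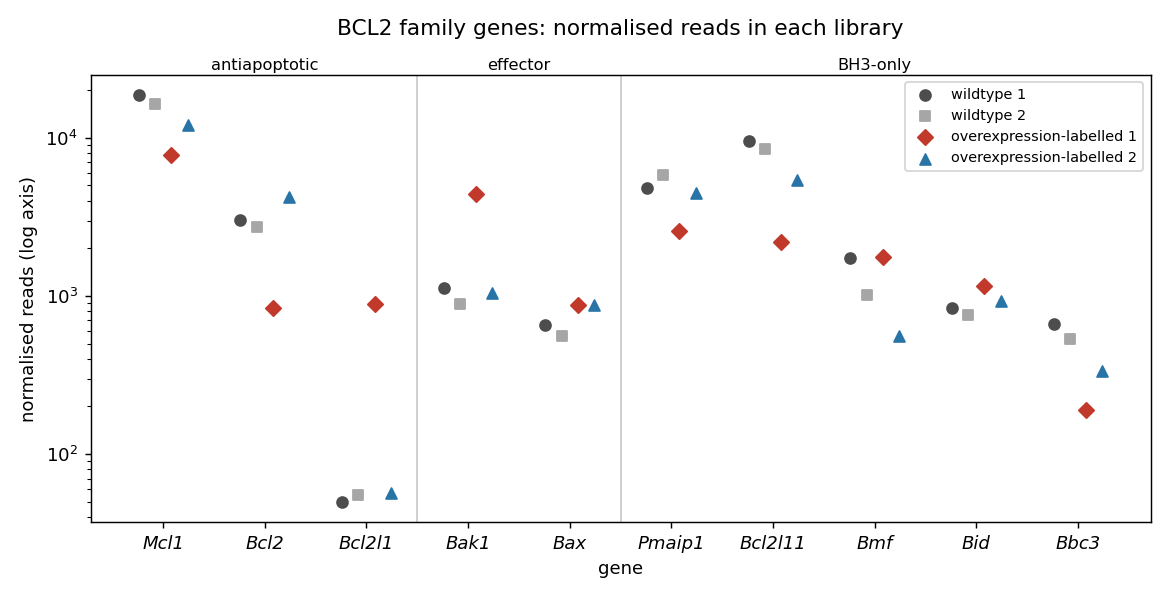
Normalised reads of the 10 genes in each of the 4 libraries, on a log axis, ordered by role (antiapoptotic, effector, BH3-only). Each point is 1 library. Library 1 of the overexpression-labelled group lies far above the other 3 for Bcl2l1 and Bak1, and slightly above them for Bid and Bmf. It lies below them for Bcl2, Mcl1, Bcl2l11, Bbc3 and Pmaip1.

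The comparison of both overexpression-labelled libraries with wildtype asks how the genotype relates to expression of the family. No member passed the threshold. By limma 0 of the 12617 genes tested were called (0% in the background, 0 of the 10 members), with 280 genes and 1 member, Bcl2l11, at an unadjusted p under 0.05; limma-voom called 0 genes too, with 186 at an unadjusted p under 0.05. The values of the groups did not overlap for 7 of the 10 members, against 42.6% of all genes tested (19.6% higher and 23% lower). Bcl2l1, Bax and Bid were higher in both overexpression-labelled libraries than in both wildtype libraries, and Mcl1, Bcl2l11, Bbc3 and Pmaip1 lower. For Bcl2l1 the margin was slight, at 6.784 log2 units in overexpression-labelled library 2 against 6.758 in wildtype library 2. The median difference of the members was -0.48 log2 units, and that of all genes -0.08. With 2 libraries against 2, the spread within the overexpression-labelled group was up to 2.20 log2 units (SD, n = 2, Bcl2l1).

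Library 1 set alone against the wildtype pair had high Bcl2l1 and Bak1 and low Bcl2, Mcl1, Bcl2l11, Bbc3 and Pmaip1. By limma 2 members rose and 5 fell, so 7 of 10 were called where 61.2% of all genes were; the members' share is near that background. The median difference was -0.31 log2 units over the members and -0.15 over all genes. Counted from that all-gene median every member kept its direction. The split of calls depends on scaling, with 3 rises and 5 falls by recomputed size factors, 4 and 5 by library totals without the ribosomal RNA precursor Rn45s, and 5 and 5 by library totals. With no filter on low counts only Bcl2, Bcl2l1 and Bcl2l11 stayed called among the members, and most calls over all genes were lost too. A lone library has no spread of its own, so its spread was taken to equal that of the wildtype libraries. The filter on low counts needs reads in 2 libraries. A gene with reads in library 1 alone was therefore not tested as a rise, while a gene absent only from library 1 could be called as a fall. The shares over all genes in library 1 carry this limit.

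Library 2 lay nearer to wildtype. By limma 1 of 10 members was called, the fall of Bcl2l11, where 1.66% of all genes were called (0.769% higher and 0.888% lower). The median difference was -0.09 log2 units over the members and 0.01 over all genes. The difference between the overexpression-labelled libraries was tested directly, and 7 of 10 members passed, where 52.6% of all genes did (22.4% higher and 30.1% lower in library 1): Bcl2l1, Bak1 and Bmf were higher in library 1, and Bcl2, Mcl1, Bcl2l11 and Pmaip1 were lower.

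**Figure D2:**
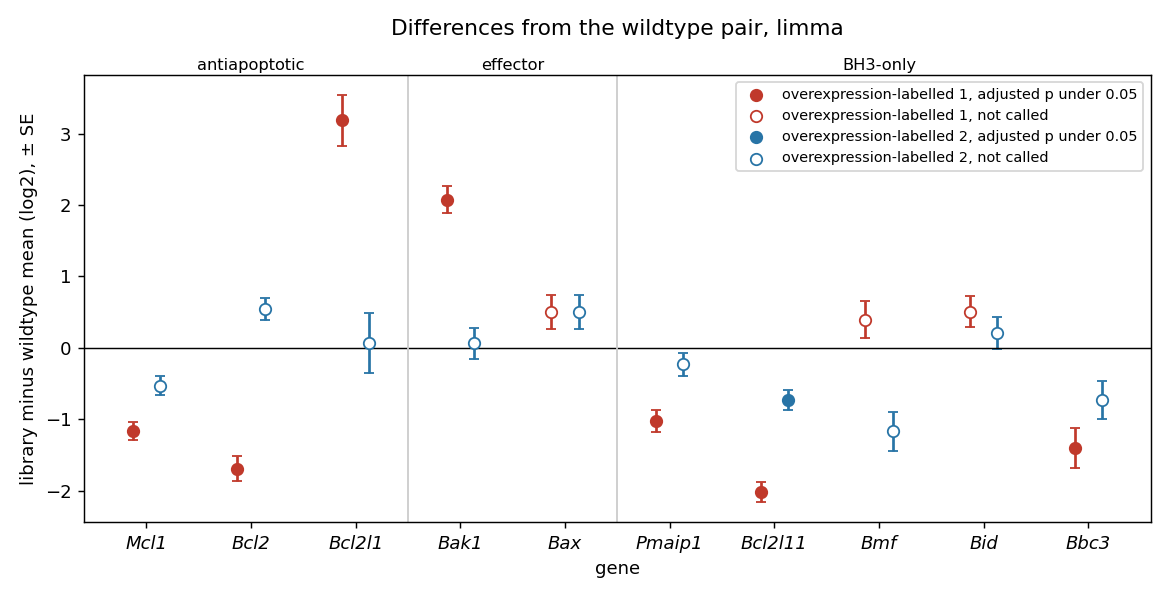
Difference of each overexpression-labelled library from the wildtype mean, in log2 units on the deposited scale, with the SE of the limma fit as bars and filled points for an adjusted p under 0.05. For library 1, 7 members are filled, led by Bcl2l1 at 3.19, and 1 for library 2, Bcl2l11 at -0.74.

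Among the antiapoptotic genes, Bcl2l1 and Bcl2 changed places in library 1. Bcl2l1 (ENSMUSG00000007659.18, chromosome 2, 152780668 to 152831728, GRCm38) encodes BCL-XL. It had 25 and 20 reads in wildtype libraries 1 and 2, 382 in overexpression-labelled library 1 and 29 in library 2, or 49.81, 55.28, 896 and 57.1 reads after division by the authors' size factor of each library (normalised reads). Library 1 alone was high, while library 2 lay just above the wildtype range. Bcl2l1 rose in library 1 by 3.19 log2 units on the deposited scale (SE 0.353). In normalised reads library 1 stood at 17.1 times the wildtype mean. These values differ because the deposited scale, with its floor, compresses differences of genes with few reads. Under other settings the difference reached 4.08 log2 units. In library 2 the difference was 0.07 (SE 0.415, limma adjusted p = 0.961), and the libraries differed from each other by 3.12 (SE 0.426, limma adjusted p = 5.56e-05). On the deposited scale a 4.45% share of all genes tested differed from wildtype by at least as much as Bcl2l1 in library 1. The few reads in the other 3 libraries leave its wildtype level with the widest counting error of the members.

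Bcl2 (ENSMUSG00000057329.7, chromosome 1, 106538178 to 106714274) had 3032 and 2725 normalised reads in wildtype, 844.4 in library 1 and 4221 in library 2. Library 1 was below and library 2 above both wildtype libraries. Bcl2 fell in library 1 by 1.70 log2 units (SE 0.175, limma adjusted p = 2.38e-06), to a 3.41-fold lower level. In library 2 the difference was 0.55 (SE 0.157, limma adjusted p = 0.118), which did not pass. The direct difference between the overexpression-labelled libraries was -2.24 (SE 0.192, limma adjusted p = 8.36e-07). Per length, Bcl2 exceeded Bcl2l1 in both wildtype libraries and in library 2, and Bcl2l1 exceeded Bcl2 in library 1. An exon of the opposite-strand gene D630008O14Rik overlaps Bcl2, and strand handling of the counting is not given in the sources used here. D630008O14Rik is not among the genes listed for each library.

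Mcl1 (ENSMUSG00000038612.16, chromosome 3, 95658788 to 95663176) encodes a short-lived protein with a high turnover. It had 18634 and 16492 normalised reads in wildtype, 7790 in library 1 and 12127 in library 2. Both overexpression-labelled libraries were below both wildtype libraries. Mcl1 fell in library 1 by 1.16 log2 units (SE 0.128, limma adjusted p = 4.3e-06), to a 2.25-fold lower level. In library 2 the difference was -0.53 (SE 0.132, limma adjusted p = 0.073), and it passed there by limma-voom and with a filter of 5 CPM in 2 libraries. Among the 3 antiapoptotic members Mcl1 made up 94.1% and 94% of the RPKM in wildtype, 88.8% in library 1 and 88.2% in library 2. Bcl2l1 made up 0.187% and 0.235% in wildtype, 7.61% in library 1 and 0.31% in library 2, and Bcl2 5.72%, 5.8%, 3.59% and 11.5%. Their sum was 144 and 131 RPKM in wildtype, 71.6 RPKM in library 1 and 100 RPKM in library 2.

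The effectors did not move alike. Bak1 (ENSMUSG00000057789.14, chromosome 17, 27019810 to 27029009) had 1126 and 884.4 normalised reads in wildtype, 4403 in library 1 and 1044 in library 2. Library 1 was far above the other 3, and library 2 lay between the wildtype libraries. Bak1 rose in library 1 by 2.08 log2 units (SE 0.195, limma adjusted p = 9.83e-07), to a 4.38-fold higher level, and differed by 0.06 in library 2 (SE 0.221, limma adjusted p = 0.925). The opposite-strand gene Ggnbp1, whose exons overlap Bak1, had 5 to 34 reads in any library. Bax (ENSMUSG00000003873.11, chromosome 7, 45461697 to 45466898) had 655.5 and 555.5 normalised reads in wildtype, 879.6 in library 1 and 880.1 in library 2. Both overexpression-labelled libraries were above both wildtype libraries, by 0.50 in each (SE 0.24 and 0.238), and neither difference passed (limma adjusted p = 0.0847 and 0.325). In library 1 it passed by library totals and by totals without Rn45s. Exons of Bax overlap the gene Gm45808 on the same strand, so strand would not separate their reads. Gm45808 is not among the genes listed for each library. Bak1 made up 52.9% and 51% of the RPKM of both effectors in wildtype, 76.6% in library 1 and 43.7% in library 2.

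Of the 5 BH3-only genes, 3 fell and 0 rose in library 1, where 34.4% of all genes fell and 26.8% rose. With library totals 2 of them rose, with recomputed size factors or totals without Rn45s 1 did, and with no filter 1 fell. Bcl2l11 (ENSMUSG00000027381.16, chromosome 2, 128126038 to 128162547) encodes BIM, which binds all antiapoptotic members. It had 9625 and 8521 normalised reads in wildtype, 2191 in library 1 and 5417 in library 2. Both overexpression-labelled libraries were below both wildtype libraries, library 1 the more so. Bcl2l11 fell in library 1 by 2.02 log2 units (SE 0.142, limma adjusted p = 5.69e-08), to a 4.14-fold lower level. It fell in library 2 by 0.74 (SE 0.14, limma adjusted p = 0.0246), to a 1.68-fold lower level, and the libraries differed by -1.28 (SE 0.164, limma adjusted p = 3.28e-05). In library 2 the call did not hold with no filter, with log2 of normalised reads plus 0.5, with totals that leave out Rn45s or with recomputed size factors, over an adjusted p of 0.00189 to 0.335 in 8 alternatives, while the difference stayed between -0.75 and -0.74.

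Bbc3 (ENSMUSG00000002083.13, chromosome 7, 16308393 to 16318205) encodes PUMA, a p53 target. It had 661.4 and 536.2 normalised reads in wildtype, 190 in library 1 and 334.7 in library 2. Both overexpression-labelled libraries were lower than wildtype. Bbc3 fell in library 1 by 1.40 log2 units (SE 0.284, limma adjusted p = 0.000829), and in library 2 the difference was -0.74 (SE 0.266, limma adjusted p = 0.204). Pmaip1 (ENSMUSG00000024521.8), which encodes NOXA, a p53 target that binds MCL1, had 4811 and 5793 normalised reads in wildtype, 2571 in library 1 and 4479 in library 2. Library 1 was the lowest, and library 2 lay just below the wildtype range. Pmaip1 fell in library 1 by 1.02 (SE 0.156, limma adjusted p = 8.93e-05), and in library 2 the difference was -0.23 (SE 0.156, limma adjusted p = 0.502).

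Bmf, whose protein is held on the cytoskeleton by dynein light chain, had 1729 and 1017 normalised reads in wildtype, 1766 in library 1 and 557.2 in library 2. The wildtype libraries differed by 0.73 log2 units, the widest gap of any member, library 1 lay at the upper wildtype value and library 2 was lowest. The gene (ENSMUSG00000040093.15) lies on chromosome 2, 118528757 to 118549687. Its difference was 0.40 in library 1 (SE 0.254, limma adjusted p = 0.19) and -1.17 in library 2 (SE 0.274, limma adjusted p = 0.0553), and between these libraries it was 1.57 (SE 0.306, limma adjusted p = 0.000957). In library 2 Bmf passed by library totals, with a filter of 5 CPM in 2 libraries and by limma-voom, over an adjusted p of 0.00878 to 0.496 in 8 alternatives. Bid, which links death receptors to mitochondria once caspase-8 has cut it, had 840.8 and 762.8 normalised reads in wildtype, 1163 in library 1 and 931.3 in library 2. Both overexpression-labelled libraries were above the wildtype range, by 0.51 (SE 0.216, limma adjusted p = 0.0561) and 0.20 (SE 0.22, limma adjusted p = 0.698). Bid (ENSMUSG00000004446.12, chromosome 6, 120891930 to 120916853) shares exon positions with the opposite-strand gene Bcl2l13, which had 586 to 740 reads. The difference of Bid in library 1 passed by recomputed size factors, library totals and totals without Rn45s. The 5 BH3-only genes summed to 95.6 and 97.9 RPKM in wildtype, 54.9 RPKM in library 1 and 70.9 RPKM in library 2.

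The profiles of some members over the 4 libraries were close to each other. As the distance between log2 values centred per gene over the 4 libraries, Mcl1 and Bbc3 lay 0.235 apart, Bax and Bid 0.268 and Mcl1 and Pmaip1 0.396. Bcl2l1 and Bak1, the pair that rose in library 1, lay 1 apart, since the rise of Bcl2l1 was the larger. Among 8866 other genes with a mean of at least 5 CPM, the nearest pair to Bcl2l1 was Hist1h3c at 0.0327 and Spry1 at 0.0673. For Bcl2 it was Pvrl4 (0.0888) and Gbp4 (0.125), and for Mcl1 Asns (0.0206) and 1700113A16Rik (0.0317). Bak1 lay nearest to 4930427A07Rik (0.0425) and Cbx3 (0.0716), and Bax to Ezh1 (0.0784) and Wdr11 (0.098). Bcl2l11 lay nearest to Megf11 (0.0554) and Ago4 (0.0655), Bbc3 to Foxn3 (0.0547) and Cyth3 (0.0875), and Pmaip1 to Rnf34 (0.0479) and Rnf139 (0.0668). Bid had close neighbours in Slc25a39 (0.0188) and Rpl36al (0.0429), while those of Bmf, Rell1 and Ccr2, were farther off at 0.222 and 0.235. With 4 libraries, of which 1 stands apart, many genes share such profiles, and the distances are a description.

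Of 17 further family genes 11 were tested. In library 1 3 rose and 4 fell, a share called that is near the 61.2% over all genes, and 0 of 11 were called in library 2, where 1.66% of all genes were. All 4 falls were of antiapoptotic genes, and with no filter 0 fell. Bcl2a1b, one of the near-identical copies that encode A1, had 301 and 295 reads in wildtype, 5 in library 1 and 738 in library 2. It fell by 3.75 in library 1 (SE 0.331, limma adjusted p = 5.51e-07), and the difference in library 2 was 0.99 (SE 0.236, limma adjusted p = 0.0592). Bcl2a1d (106, 45, 2 and 152 reads in the same order) and Bcl2a1a (42, 20, 2 and 56 reads) were also lowest in library 1 and highest in library 2, but reads of these copies may have been split among them. Bcl2l10 also fell, with 22 and 6 reads in wildtype and 0 in library 1. Neutrophils express A1, and the neutrophil markers were highest in library 2, at 1422 CPM; their part in the level of A1 was not tested.

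The summed RPKM of antiapoptotic transcripts, with 3 A1 copies and Bcl2l2 (BCL-W) included, was 172 and 162 in wildtype, 73.8 in library 1 and 157 in library 2. The A1 copies made up 15.7% and 19% in wildtype, 0.965% in library 1 and 35.8% in library 2. Library 1 thus had the lowest sum, and its minor components were Bcl2l1 (7.39%), Bcl2 (3.49%) and Bcl2l2 (1.99%). Among the atypical members the 3 rises were those of Bcl2l12 by 1.84 (limma adjusted p = 0.00113), and the mitophagy receptors Bnip3 by 1.69 (limma adjusted p = 0.000935) and Bnip3l by 1.08 (limma adjusted p = 4.86e-05). Bok, an effector-like member, had 118 reads in library 1 and 0 in each of the other 3. It did not pass the filter because that needs reads in 2 libraries, and with no filter it was called as a rise in library 1. The genes that did not pass the filter were Bok, Bcl2a1c, Bik, Hrk, Bcl2l14 and Moap1.

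**Figure D3:**
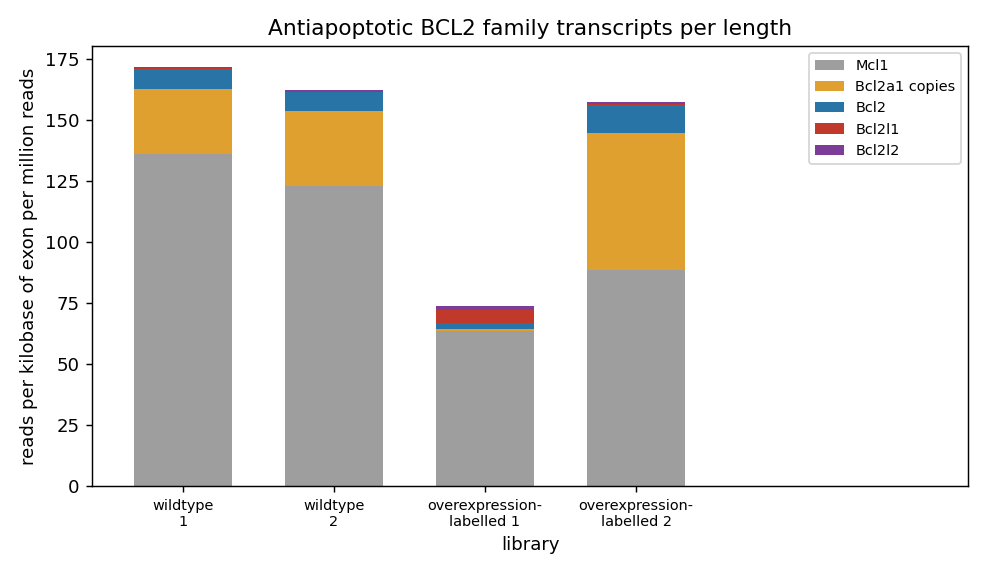
Stacked bars of the antiapoptotic transcripts in each library, in RPKM, with Bcl2a1 copies as the sum of Bcl2a1a, Bcl2a1b and Bcl2a1d. The bar of overexpression-labelled library 1 reaches 73.8, against 157 to 172 in the other 3, and the A1 segment is nearly absent from it.

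Several genes that act at or downstream of the mitochondria rose in library 1. Of 11 tested genes of the apoptosome and caspase list 8 rose and 0 fell (median 0.89, against -0.15 over all genes), where 26.8% of all genes rose. Casp2, an initiator caspase, rose by 2.09 (limma adjusted p = 2.94e-07) and Dffa, which encodes the inhibitor of the apoptotic nuclease, by 1.76 (limma adjusted p = 0.00026). Apaf1 and Casp9, the core of the apoptosome, differed by 0.40 and 0.66 and did not pass (limma adjusted p = 0.105 and 0.0591), and Casp6 differed by -0.11 (limma adjusted p = 0.77). Of 7 mitochondrial and BH3-partner genes 6 rose and 0 fell (median 0.97). Dynll1, which encodes a dynein light chain, rose by 2.12, and the channel genes Vdac1 and Vdac3 rose by 1.83 and 1.47. With no filter most rises of the first list and all of the second were no longer called, and most calls over all genes were lost too. In library 2, 0 genes of either list were called.

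The inhibitors of apoptosis proteins moved in both directions. The 9 tested genes had a median difference of 0.19 log2 units in library 1, against -0.15 over all genes. With no filter on low counts only the rise of Birc5 stayed called. Birc5, which encodes survivin and also serves in mitosis, had 50 and 29 reads in wildtype, 1052 in library 1 and 66 in library 2. It rose in library 1 by 4.13 (SE 0.304, limma adjusted p = 8.85e-08). Xiap, a direct inhibitor of caspases, rose by 0.55 (limma adjusted p = 0.0165). Birc3 (cIAP2), an NF-kB target, had 5027 and 4411 reads in wildtype, 775 in library 1 and 4824 in library 2. Its fall in library 1 was by 2.56 (SE 0.15, limma adjusted p = 9.7e-09). Birc2 and Birc6 fell by 0.54 and 0.30; the call of Birc2 was lost by totals without Rn45s, and that of Birc6 under all 3 other scalings. All 5 cycling markers rose in library 1, and their part in the rise of Birc5 was not tested.

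The 8 regulators of MCL1 and BIM protein moved in both directions in library 1, with a median difference of 0.55 log2 units, against -0.15 over all genes. With no filter on low counts only Mapk3 and Usp9x stayed called. Mapk3, which encodes a kinase that phosphorylates BIM for degradation, rose by 1.70 (limma adjusted p = 4.45e-05). The ubiquitin ligase adaptor Btrc rose by 1.70 (limma adjusted p = 0.000209). Fbxw7, another adaptor for MCL1 turnover, fell by 1.25, the MCL1 deubiquitinase Usp9x by 0.96 and the MCL1 ligase Huwe1 by 0.70 (limma adjusted p = 3.15e-05, 1.56e-05 and 0.00032).

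Among 13 tested transcription regulators of the family, 2 rose and 8 fell in library 1, where 34.4% of all genes fell. Trp53, the activator of Bbc3, Pmaip1 and Bax, rose by 2.15 (SE 0.212, limma adjusted p = 1.57e-06). Of these 3 genes Bbc3 and Pmaip1 fell in library 1, and Bax differed by 0.50 and did not pass. Foxo1 had 13637 and 8287 reads in wildtype, 3715 in library 1 and 6821 in library 2. It fell by 1.51 in library 1 (SE 0.131) and by 0.89 in library 2 (SE 0.136). Among the members and lists, only Bcl2l11 and Foxo1 were called in both libraries. With no filter on low counts Foxo1 was called in neither, and Bcl2l11 in library 1 alone. The library 1 calls of Trp53, E2f1, Rel, Rela and Mir17hg were also lost with no filter, while those of Ddit3 and Nfkb1 held. E2f1 rose by 1.79 and the stress factor Ddit3 fell by 1.65 in library 1 (limma adjusted p = 0.000566 and 1.73e-05). The FOXO1 relative Foxo3 differed by -0.01 in library 1 (limma adjusted p = 0.959). The NF-kB genes Nfkb1, Rel and Rela fell by 1.73, 1.43 and 1.25 (limma adjusted p = 9.88e-08, 3.64e-06 and 1.11e-05); NF-kB is a known activator of A1, Birc3 and Bcl2l1. Mir17hg, the host transcript of a microRNA cluster that represses BIM, fell from 324 and 332 reads in wildtype to 6 in library 1, in the same library in which Bcl2l11 fell; its mature microRNAs were not measured. Stat5a and Stat5b, which carry the IL-7 signal, differed by -0.16 and 0.00 (limma adjusted p = 0.569 and 0.99).

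Among 6 genes of death receptors and their signalling partners, the receptor genes Fas and Tnfrsf10b fell in library 1. Ripk1, which encodes a kinase and not a receptor, rose. Fas had 101 and 108 reads in wildtype, 5 in library 1 and 238 in library 2, and fell by 2.43 in library 1 (SE 0.389, limma adjusted p = 0.000131). The difference of Fas in library 2 was 0.80 (limma adjusted p = 0.244). Over the 65 tested genes of the other lists and families, 26 rose and 20 fell in library 1, and 0 rose and 1 fell in library 2. Over all genes 26.8% rose and 34.4% fell in library 1, and 1.66% were called in library 2. With no filter on low counts most library 1 calls in these lists were lost, as were most over all genes. The markers of pro-B and pre-B cells and of the cell cycle were high, and those of later B cells low, in the same library that carried these differences. Their part in the differences of the BCL2 family was not tested.

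**Figure D4:**
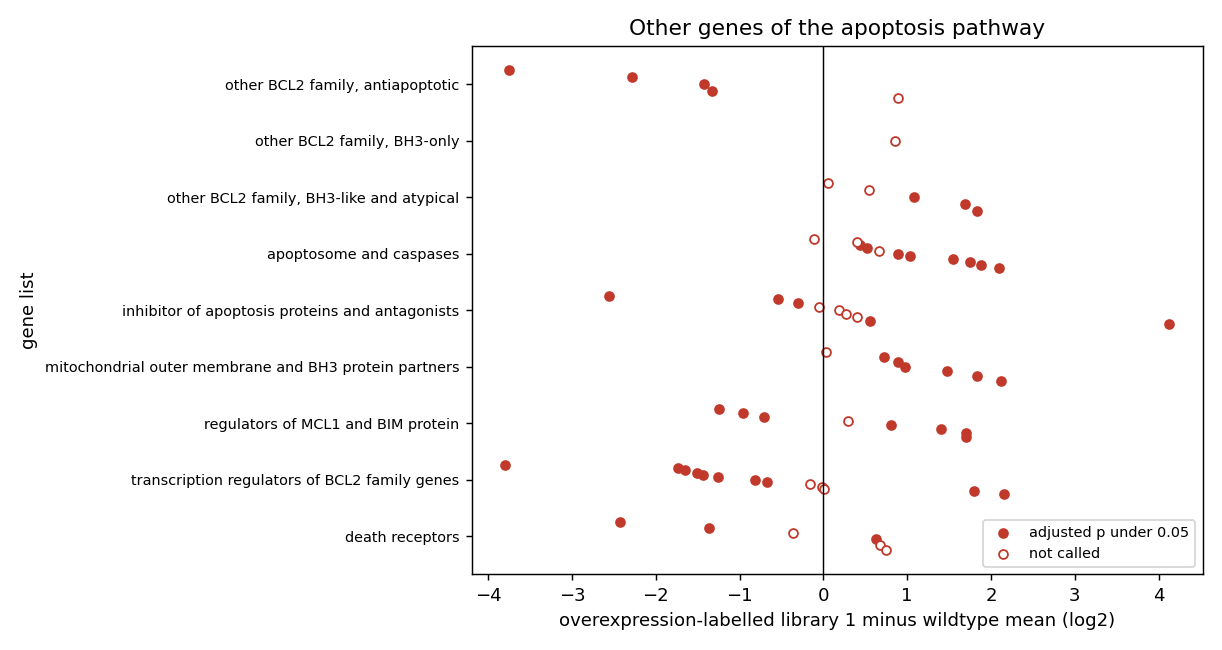
Differences of overexpression-labelled library 1 from the wildtype mean, in log2 units, for the tested genes of each list, with filled points for a limma adjusted p under 0.05. Apoptosome and mitochondrial genes lie mostly to the right of 0, while Birc3 (-2.56) and Birc5 (4.13) lie at opposite ends of their list.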

How the data were processed

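RNA-seq libraries of 1 ug of total RNA were analysed from 4 samples, grouped by genotype label. In 1 wildtype genotype label there is a typing slip. The header and title of overexpression-labelled library 1 disagree by 1 digit, which was read as a typing slip too. STAR, HTSeq, DESeq2 and mm10 are named in the submitters' processing notes; versions and settings are not given in the sources used here. The authors deposited log2 values (floor 4.949), and inverting a variance stabilizing transformation gave whole reads for 100% of values within 0.01. Genes needed 10 reads at the median library size in 2 libraries and 15 in all, which kept 12617. Differences were tested by limma-trend (limma 3.58.1 in R 4.3.3) on the deposited values, with 2-sided p-values. Benjamini-Hochberg adjustment was over all genes tested, with a threshold of 0.05. The fit was also run on simulated reads, with the same spread in every library and the same changes in both overexpression libraries. These data differ from that setting, so the simulation cannot show how sound the single-library calls are. Folds are ratios of normalised reads. The deposited scale compresses log2 differences of genes with few reads, so their folds can be larger than the log2 differences give. List medians and distances between profiles use the deposited scale too. RPKM used reads over the exon union of GENCODE M21 (GRCm38). Members and lists were chosen with earlier results of these data known. Named genes are all members, and up to 3 genes per direction and list with the largest called differences, Arid5b, and the 2 genes nearest to each member, though some list genes are not reported here by name; other list genes were chosen after their values were seen. Alternatives were other scalings, transformations, filters, limma-voom, a robust prior and leaving out each library.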

Additional observations from a re-analysis of the deposited data

How the results depend on the processing

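All counts here are limma calls at an adjusted p under 0.05. In the comparison of both groups, leaving out each library in turn gave 0 to 7721 genes and 0 to 7 members, with 7721 and 7 without overexpression replicate 2, 209 and 1 without overexpression replicate 1, and 1 gene and 0 members without wildtype replicate 2. Over these 4 fits the difference of Bcl2 ran from -1.6978 to 0.5447, positive without overexpression replicate 1, and that of Bmf from -1.1700 to 0.3954, positive without overexpression replicate 2. For library 1, no filter gave 2642 genes and 3 members. For library 2, recomputed size factors gave 75 genes and 0 members, library totals 311 genes and 2 members, totals without Rn45s 58 and 0, no filter 0 and 0 (2316 genes at an unadjusted p under 0.05), the log2 with 0.5 added 56 and 0, 5 CPM in 2 libraries 241 genes and 3 members, and limma-voom 614 and 4. The difference of Bak1 in library 2 ran from -0.1035 without wildtype replicate 2 to 0.2246 without wildtype replicate 1. Between the overexpression-labelled libraries no filter gave 2486 genes and 2 members, and the difference of Bax was 0.0948, 0.1503 and 0.1928 by recomputed size factors, library totals and totals without Rn45s. No filter brings more genes of few reads into the fit, and also genes with reads in 1 library only. Other causes were not tested. The remaining differences of members kept their sign in every alternative run. Leaving out a wildtype library from a single-library comparison leaves no residual spread, so it gave values without a test. The labels give no replicate numbers, and those used here only name the libraries, so no paired analysis was possible. Depth limits Bcl2l1, with 20 to 29 reads in 3 libraries.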
